A study of Homo sapiens with 8 samples.

Results

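The regions described here are 1747 H3K27ac regions at the promoters of protein-coding genes that were listed in MP2_NTC control cells and in no overlapping place in MP2_HDAC1_OE cells, out of 10289 H3K27ac regions at such promoters and 18678 regions in all. They were chosen by the presence and absence of peaks, so their absence from the MP2_HDAC1_OE list is the rule and not a finding. Peaks of both lines were merged where they shared at least 1 bp, and a region counted as control-only when each of its peaks came from MP2_NTC. Promoter windows reached 2 kb beyond a gene's end and 1 kb into the gene, and were set at both ends because the strand was known for 15841 of the 20033 coding genes.

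Both lines derive from MIA PaCa-2, an established human pancreatic carcinoma line. Cells of both lines carried the lentiMPHv2 and lentiSAMv2 constructs, a CRISPR activation system in which a Cas9 without cutting activity and its partner proteins bring transcriptional activators to the site that a guide RNA matches. MP2_NTC carried a non-targeting guide and MP2_HDAC1_OE a guide to HDAC1, so that HDAC1 was driven from its own promoter in a stable line. H3K27ac was precipitated from 2 samples per line with the Abcam antibody ab4729, and each line also had 2 controls without antibody. The deposited data are 1 list of reproducible peaks per line, 22569 peaks in MP2_NTC and 25045 in MP2_HDAC1_OE, each made from both samples. There are no values per sample and no read counts. Depth is therefore unknown, no difference can be set against the spread between replicates, and the Wilson intervals given below cover counting error only. A single line stands for each condition, so other differences between the lines cannot be told apart from the activation of HDAC1.

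Acetylation of lysine 27 of histone H3 marks active promoters and enhancers and is placed mainly by the acetyltransferases p300 and CBP. HDAC1 is a class I histone deacetylase that removes acetyl groups within the NuRD, Sin3 and CoREST complexes. At an active promoter the mark usually sits on the nucleosomes on both sides of the start site, with a nucleosome-poor gap just upstream of it. The authors' signal value was used here as a percentile rank, the percent of peaks in the same list with a lower signal, because the scaling between the lists is not known.

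For the lost promoter genes, whose windows held control-only regions and no MP2_HDAC1_OE peak, the 250 bases before the RefSeq start site (GRCh38.p14, 5′ to 3′ in the direction of the gene) are printed for the 4 whose control-only peaks ranked highest among those with a known sequence, to show what such promoters look like. MOCS3 was added after its values were seen, because it shares its region with DPM1, which starts in the opposite direction just beyond these bases. Capitals mark matches on either strand to any of 8 short motifs, the GC box GGGCGG, the box of nuclear factor Y CCAAT, the TATA box TATAAA, the ETS motif CCGGAAG, the E-box CACGTG, the AP-1 motif TGACTCA, the CRE motif TGACGTCA and the longer NRF1 motif, none of which contains another.
VTI1B (chr14:67674633-67674882, minus strand): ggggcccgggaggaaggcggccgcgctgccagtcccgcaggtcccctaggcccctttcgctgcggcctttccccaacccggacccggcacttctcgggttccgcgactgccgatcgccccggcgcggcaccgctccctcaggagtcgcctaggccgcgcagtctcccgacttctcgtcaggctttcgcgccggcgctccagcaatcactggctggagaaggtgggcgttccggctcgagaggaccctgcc
N4BP1 (chr16:48610181-48610430, minus strand): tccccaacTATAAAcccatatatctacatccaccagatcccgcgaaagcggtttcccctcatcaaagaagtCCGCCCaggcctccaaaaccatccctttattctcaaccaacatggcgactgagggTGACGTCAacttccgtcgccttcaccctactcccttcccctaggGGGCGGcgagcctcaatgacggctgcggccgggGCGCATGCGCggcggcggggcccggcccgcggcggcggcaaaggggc
NANP (chr20:25624015-25624264, minus strand): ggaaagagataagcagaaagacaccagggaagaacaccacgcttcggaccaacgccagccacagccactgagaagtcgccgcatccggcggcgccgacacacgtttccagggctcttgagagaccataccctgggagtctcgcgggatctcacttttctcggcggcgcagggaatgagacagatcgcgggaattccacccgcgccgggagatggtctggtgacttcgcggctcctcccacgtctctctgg
LATS1 (chr6:149716426-149716675, minus strand): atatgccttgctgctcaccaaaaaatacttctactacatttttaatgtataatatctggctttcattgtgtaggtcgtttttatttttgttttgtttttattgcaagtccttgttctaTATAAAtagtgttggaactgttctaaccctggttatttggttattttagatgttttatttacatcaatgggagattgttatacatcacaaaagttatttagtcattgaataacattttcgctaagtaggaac
MOCS3 (chr20:50958568-50958817, plus strand): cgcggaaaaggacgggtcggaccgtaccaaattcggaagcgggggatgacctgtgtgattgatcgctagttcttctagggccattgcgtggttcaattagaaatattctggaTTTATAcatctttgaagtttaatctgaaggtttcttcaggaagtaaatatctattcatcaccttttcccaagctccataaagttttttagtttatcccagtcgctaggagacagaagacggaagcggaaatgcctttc
The VTI1B bases were 72.4% G or C with 30 CpG, and all 250 lay inside the control-only region, yet they held none of the 8 motifs. N4BP1 had 23 CpG and 2 GC boxes, 1 CRE motif, 1 NRF1 motif and 1 TATA box. NANP had 23 CpG and none of the 8 motifs. The LATS1 bases were 29.2% G or C with 2 CpG and lay outside the control-only region. The start site used for LATS1 lies inside the annotated gene, so these bases are not the promoter sequence under the region. The summit of the region was upstream of that start site (position -1344), near the annotated end of the gene. The MOCS3 bases, between the starts of MOCS3 and DPM1, were 43.2% G or C with 12 CpG and 1 TATA box. Of the promoter sequences of all coding genes, 56.0% held the GC box, 9.24% the TATA box, 2.32% the CRE motif and 7.64% the NRF1 motif. A match is a string of letters and not a measured binding site.

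Control-only regions made up 17.0% of the 10289 regions in coding-gene promoter windows (95% Wilson interval 16.3% to 17.7%), and MP2_HDAC1_OE-only regions 20.2% (2076 regions). The control-only share was 30.1% (4494 regions) when single peaks had to overlap by 50% of both, and 8.80% (837) with the 50% of MP2_NTC peaks of the highest signal. The other 6466 regions were shared. Outside these windows the control-only share was 25.2% (2117 of 8389 regions). Start sites gave a smaller share, since of 5630 coding start sites that lay inside a region 697 lay in a control-only region, or 12.4% (11.5% to 13.3%), and 4199 in a shared one. A region most often belonged to a single gene (1299 regions), while 421 lay in the windows of 2 genes, 23 of 3 and 4 of 4, so genes that share a region are not independent of each other.

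Genes with a control-only region fell into classes by what else their window held. Of 9722 coding genes with any region, 1015 or 10.4% had control-only regions and no MP2_HDAC1_OE peak, and are called lost promoter genes (9.85% to 11.1%). A further 815 or 8.38% held a control-only region beside a shared one, and are called lost flank genes (7.85% to 8.95%). The remaining 251 or 2.58% held a control-only and an MP2_HDAC1_OE-only region but no shared one, and are called switched genes. In the opposite direction 1237 genes (12.7%) had MP2_HDAC1_OE peaks alone and 944 had an MP2_HDAC1_OE-only and a shared region. Of these 944, 143 are also lost flank genes and 801 (8.24%) had no control-only region. The word lost stands for a peak listed in one line and not in the other, and not for a measured fall in reads. The lost flank count depended on how peaks were joined, with 2616 genes when single peaks had to overlap by 50% of both, 335 when gaps of up to 500 bp were merged and 465 when the end with the start site alone was used. The lost promoter count was 1034, 1007 and 845 in these settings and 796 when a gene could have no MP2_HDAC1_OE peak in it or within 5 kb, but 502 when MP2_NTC was cut to the 50% of its peaks with the highest signal.

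**Figure D1:**
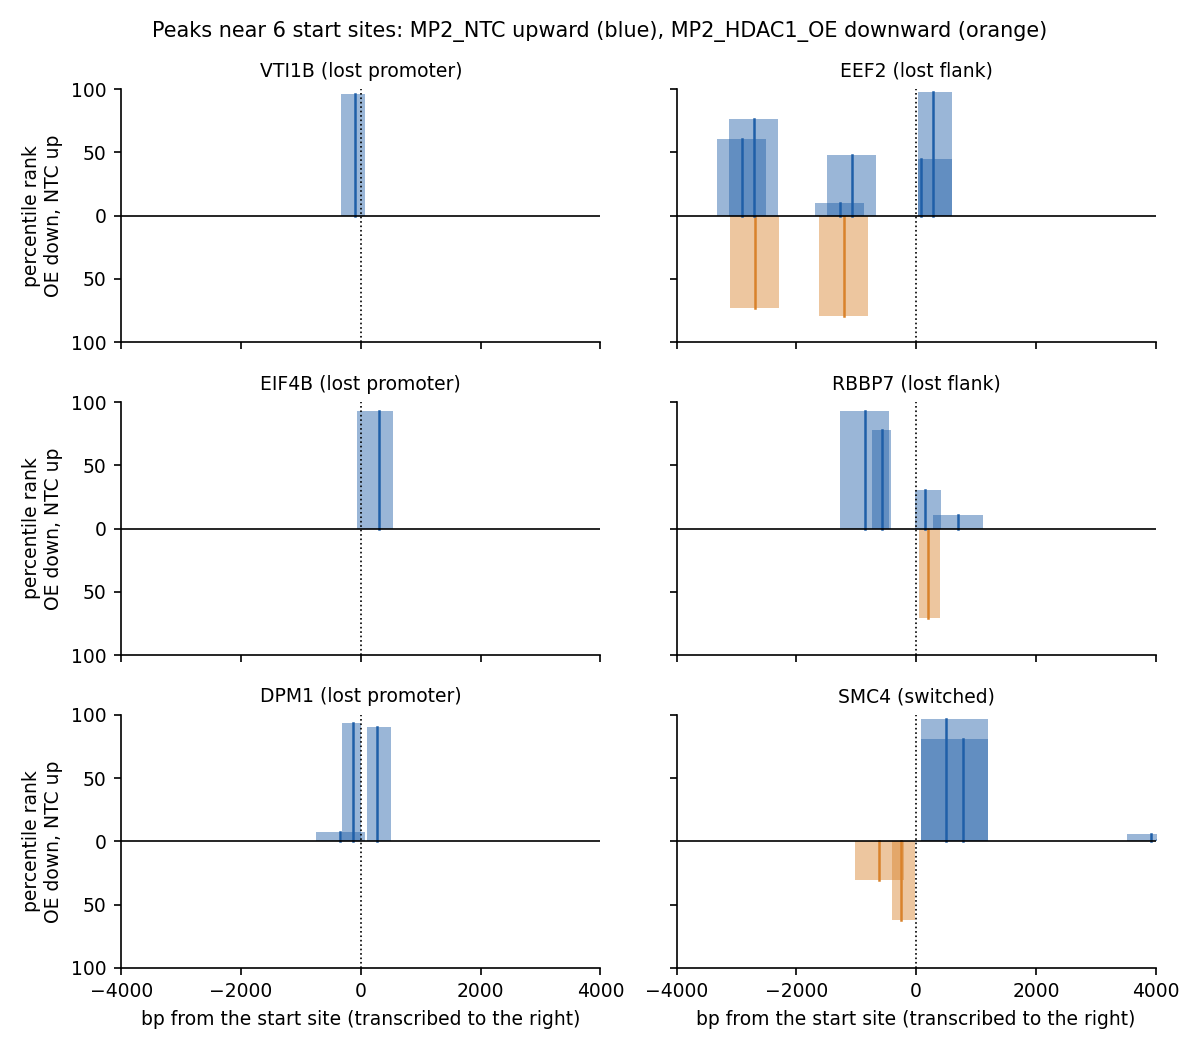
Peaks of both lines within 4000 bp of 6 start sites, with position in bp from the start site on the x axis and percentile rank within the line's own list on the y axis, MP2_NTC upward in blue and MP2_HDAC1_OE downward in orange; boxes are peak intervals and vertical lines are summits. VTI1B, EIF4B and DPM1 have blue boxes alone, EEF2 and RBBP7 have a blue box without a partner beside boxes of both lines, and SMC4 has blue downstream of the start and orange upstream.

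Control-only promoter regions were mostly of middling strength within the MP2_NTC list. Their strongest peaks had a median percentile rank of 46.9 (quartiles 30.8 and 65.5) and signals from 12.0 to 125 with a median of 47.6. The strongest MP2_NTC peaks of shared promoter regions had a median rank of 75.8, and MP2_HDAC1_OE-only regions had a median of 49.2 within their own list. Strong control-only regions were present, with 248 (14.2%) at a rank of 75 or higher and 52 at 90 or higher. The median width was 820 bp (205 to 2480), and 65.1% consisted of a single peak, against 40.6% of shared regions. Outside the promoter windows the median rank of control-only regions was 34.3. The rank follows from the same peaks that chose the regions, so these values are a description.

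**Figure D2:**
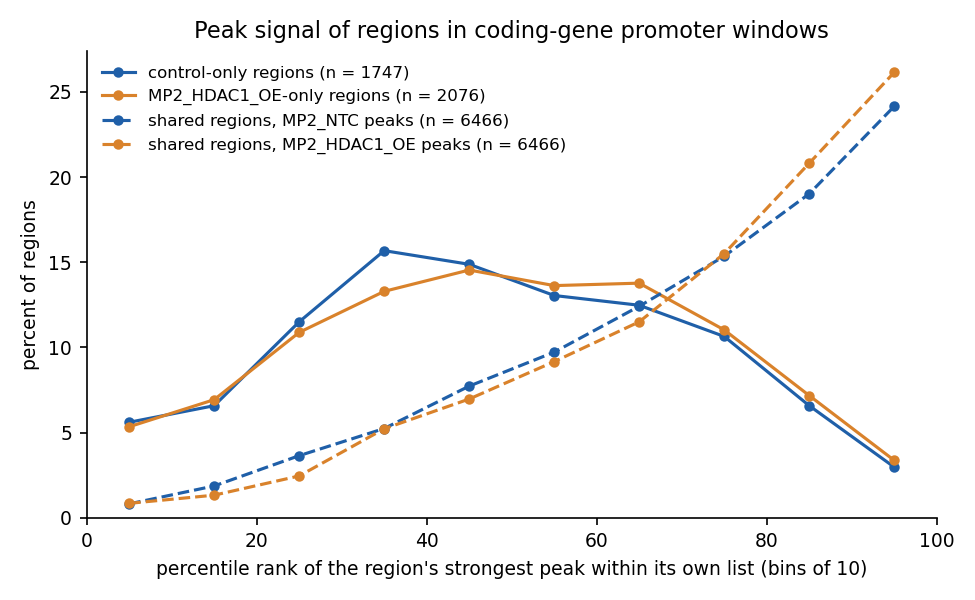
Percent of regions in coding-gene promoter windows (y axis) by the percentile rank of their strongest peak in bins of 10 (x axis). The solid lines of control-only (1747) and MP2_HDAC1_OE-only (2076) regions have their highest bins between 30 and 50, and the dashed lines of the 6466 shared regions climb to the top bin, which holds 24.2% of them by MP2_NTC peaks and 26.2% by MP2_HDAC1_OE peaks.

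Lost promoter regions lay mostly at the start of the gene. Lost flank genes had to hold a shared region in a window at either end. Their control-only regions covered the start site less often and lay more often at the far end. Of 827 lost promoter genes with a known strand, 770 (93.1%) had the strongest control-only peak at the end with the start site and 52 at the other end. The region covered the start site itself in 481 (58.2%). Of 689 lost flank genes with a known strand, 508 (73.7%) had it at the start and 168 (24.4%) at the other end, and the region covered the start site in 111 (16.1%). At the start end, the summit in lost promoter genes had a median position of 156 bp downstream of the start site (quartiles -350 and 324), and 70.3% of summits lay within 500 bp. In lost flank genes the median was 221 bp upstream (-221) and 42.2% lay within 500 bp. Summits were sparse in the 200 bp just upstream of the start, with 27 of 775 lost promoter genes and 6 of 521 lost flank genes, while the 200 bp just downstream held 159 and 52.

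**Figure D3:**
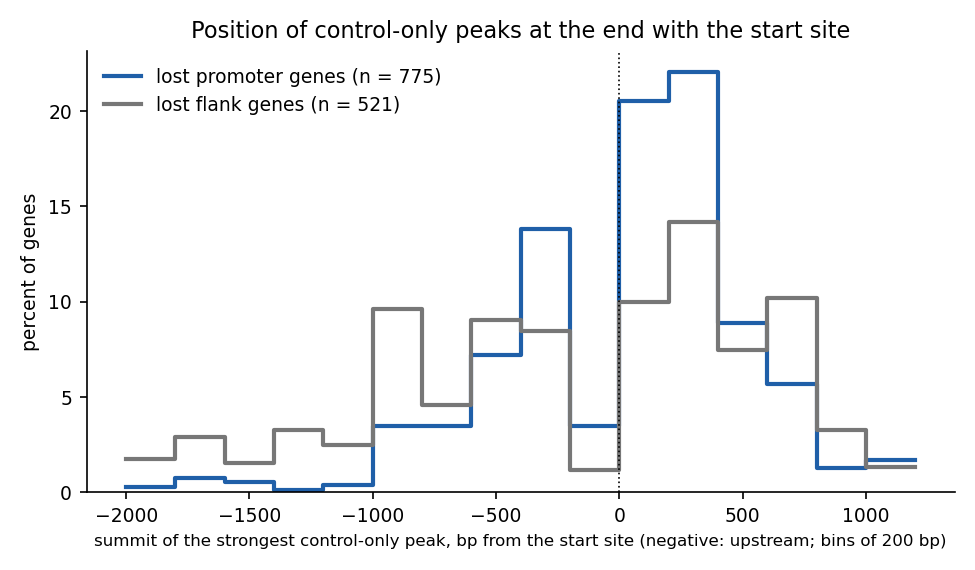
Percent of genes (y axis) by the summit position of their strongest control-only peak relative to the start site, in bins of 200 bp with upstream negative (x axis), for genes with the peak at the end with the start site. Lost promoter genes (775) gather on both sides of the start with 22.1% in the bin from 200 to 400 bp, both lines dip in the bin just upstream of the start, and lost flank genes (521) spread further upstream.

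How far the nearest MP2_HDAC1_OE peak lay separated the classes by construction in part, since a shared region had to sit in the window of a lost flank gene. From the strongest control-only region of lost promoter genes the nearest MP2_HDAC1_OE peak was a median of 44793 bp away, and in 834 of 1015 genes (82.2%) it was over 10 kb away. A minority of 219 (21.6%) had an MP2_HDAC1_OE peak inside the gene or within 5 kb of it. In lost flank genes the median distance was 446 bp, with 54.7% within 500 bp. In switched genes the median was 312 bp. Over all 1747 regions, 117 ended within 100 bp of an MP2_HDAC1_OE peak, 476 (27.2%) within 500 bp and 437 had none within 50 kb. At the border of the overlap rule, the control-only regions of PRDM10 (rank 39.7) and DNAJA2 (rank 27.3) touched an MP2_HDAC1_OE peak with 0 bp between them, while shared regions at CACNG6 and CACNG8 (2 bp, rank 20.8) and at RNGTT (5 bp, rank 32.3) just overlapped. At the border of the window, the control-only regions of TM9SF2 (rank 54.3) and CCDC9B (rank 53.7) reached 10 and 12 bp into it, and those near SETD2 (rank 47.1) and MCMBP (rank 22.0) stopped 2 and 8 bp short.

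The lost promoter genes with the strongest MP2_NTC peaks had varied roles, and by the rule none had an MP2_HDAC1_OE peak at the promoter. VTI1B, a SNARE protein of endosomal vesicle fusion, had the highest, a peak of 411 bp over the start site (chromosome 14, 67674554 to 67674964) with a signal of 112 and a rank of 96.2. The nearest MP2_HDAC1_OE peak was 19973 bp away. N4BP1, a regulator of ubiquitin and NF-kappa-B signalling, followed with a signal of 108 and a rank of 95.6, and the nearest MP2_HDAC1_OE peak was 224235 bp away. LATS1, a core kinase of the Hippo pathway that restrains YAP, had a signal of 106 (rank 95.1). TFPI, the inhibitor of the tissue factor pathway of coagulation, ranked at 91.9, but here an MP2_HDAC1_OE peak lay 2331 bp from the region, outside the window.

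Metabolic enzymes and regulators of RNA were also among these genes. NANP, a phosphatase of sialic acid synthesis, had a rank of 95.3. DPM1, the catalytic subunit of dolichol-phosphate mannose synthase, and MOCS3, an enzyme of molybdenum cofactor synthesis and tRNA thiolation, start back to back inside a single region of 820 bp with a rank of 93.2. DPM1 held a second control-only region downstream of its start with a peak at rank 90.6, so that both sides of its start were listed in MP2_NTC and neither in MP2_HDAC1_OE. TUT7, which adds uridines to RNA ends, and RPRD1A, which binds the tail of RNA polymerase II, both ranked at 91.9. PCBD1, which recycles the cofactor tetrahydrobiopterin, ranked at 91.3 and CSTB, an inhibitor of cathepsins, at 91.1.

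Translation was represented by 3 of the 20 genes. In the gene lists described below, lost promoter shares were 5.21% (mitochondrial), 8.75% (cytosolic ribosomal) and 11.2% (translation factors). The share of all coding genes with a region was 10.4%. MRPL23, of the mitochondrial ribosome, had a rank of 95.4, EIF4B, an initiation factor that assists the helicase eIF4A, a rank of 92.6 and RPL24, of the large cytosolic subunit, a rank of 91.5. The EIF4B peak covered the start site from 61 bp upstream to 531 bp downstream (-61 to 531) with its summit at 297 bp. The transcription factors were ZNF708 (rank 94.7), a KRAB zinc finger protein, GZF1 (91.8), a zinc finger repressor, and FOXJ3 (90.5), of the forkhead family. The others were LOC112267855 (94.4), DGCR6 (91.7) and GLTPD2 (90.7). At the lower end, the lost promoter genes with the weakest peaks were SLC16A14 (rank 1.95), of the monocarboxylate transporter family, PRX (1.89), a protein of peripheral myelin, and GRAMD4 (1.31). The PRX region ended 116 bp from an MP2_HDAC1_OE peak, and the SLC16A14 region lay 144218 bp from the nearest.

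The functions of the lost promoter genes were described with 23 lists of gene families, each read against the 10.4% of all coding genes with a region. The lists were filled by symbol, so a few members have other roles than the list's name. The share was highest for receptors and channels, with 18 of 77 genes (23.4%, 95% Wilson interval 15.3% to 34.0%), and these 18 rested on 20 regions. Of the same 77, 13 (16.9%) had MP2_HDAC1_OE peaks alone, against 12.7% of all coding genes with a region. KCNN1, a calcium-activated potassium channel, ranked at 74.6 with its region at the far end of the gene. FZD2, a Wnt receptor, ranked at 62.1, TRPM7, a channel with a kinase domain, at 58.7 and ADGRA3, an adhesion receptor, at 54.3. The median rank of the 18 was 41.0, below that of all lost promoter genes (49.8).

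Cell cycle and mitosis followed with 24 of 157 genes (15.3%, 10.5% to 21.7%), and their median rank was 56.4. ANAPC11 (rank 89.5) and ANAPC15 (84.7) are subunits of the anaphase-promoting complex, which triggers the destruction of cyclins and securin. CCNB1IP1 (89.1) is a ubiquitin ligase named for its contact with cyclin B1, and GINS4 (79.3) belongs to the replicative helicase. The 24 also included the mitotic kinase CDK1 and its cyclins CCNA2 and CCNB2, the licensing factors CDC6 and MCM3, and the centromere proteins CENPA and CENPE. These genes were chosen for mention after their class was seen. CDK1, CCNA2, CDC6 and CENPE ranked below the list's median of 56.4, and CCNB2, MCM3 and CENPA above it. Of lysosome and autophagy genes, 10 of 71 (14.1%, 7.83% to 24.0%) had a lost promoter. They included HEXA (rank 76.6), which degrades gangliosides, ATP6V1F (72.8), a subunit of the vacuolar proton pump, ULK3 (60.5), a kinase related to the autophagy kinase ULK1, and CTSZ (59.1), a cathepsin.

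In DNA damage and repair 12 of 105 genes (11.4%) had a lost promoter, led by ERCC5 (rank 76.2), the endonuclease XPG of nucleotide excision repair. RAD9B (68.1) is a paralog of a checkpoint clamp subunit, LIG4 (67.5) the ligase of end joining and RAD21 (62.6) a cohesin subunit. Among kinases and phosphatases, 22 of 211 (10.4%) were lost promoter genes. PIK3R1, the p85 regulatory subunit of PI3 kinase, had a rank of 88.9 and its nearest MP2_HDAC1_OE peak 878469 bp away. PPP4R1 (77.9) and PPP1R3D (77.1) are phosphatase regulatory subunits, and MAP2K2 (72.8) is the ERK kinase MEK2. Small GTPases and their regulators had 20 of 196 (10.2%), with TBC1D14 (83.4), a Rab GAP-domain protein of autophagy, RAB11FIP5 (70.7), an effector of Rab11, and the Rac activators DOCK5 (65.9) and DOCK1 (63.4).

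Translation factors and tRNA synthetases had 11 of 98 (11.2%), where EIF2AK1 (rank 81.0) is a heme-regulated kinase of eIF2 and PARS2 (79.6) and VARS2 (70.1) charge mitochondrial tRNAs. Solute carriers had 20 of 175 (11.4%), among them the glutamine transporter SLC38A1 (66.6), SLC68A1 (61.9) and the vesicular nucleotide transporter SLC17A9 (58.2). Cytoskeleton and motors had 13 of 110 (11.8%), with ACTN3 (82.4), an actin crosslinker of muscle, the myosins MYO9A (60.5) and MYO1E (55.0) and TLN2 (53.5), a talin. Glycolysis and hypoxia had 5 of 38 (13.2%), with PKM (46.9), which encodes pyruvate kinase, and the glucose transporters SLC2A10 (43.9) and SLC2A8 (36.5). The aldolase ALDOC (42.1) had its region at the far end of the gene. Of the same 38, 7 (18.4%) had MP2_HDAC1_OE peaks alone, against 12.7% of all coding genes with a region. Receptors and channels (15.3% to 34.0%) had an interval above 10.4%. For cell cycle and mitosis (10.5% to 21.7%) the lower bound was only just above the background, 10.49% against 10.44%. That list was filled by symbol too, and its lost promoter genes included CDK5R1, KIF3B and CDC37. The intervals treat genes as independent and make no allowance for the number of lists, so this small margin decides nothing. The value of 10.4% lay inside the intervals of lysosome and autophagy, DNA damage and repair, kinases and phosphatases and small GTPases. It also lay inside those of translation factors and tRNA synthetases, solute carriers, cytoskeleton and motors, and glycolysis and hypoxia.

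KRAB and other zinc finger factors had 37 of 398 genes (9.30%), the largest number of any list, and ranks from 25.3 to 94.7. After ZNF708 came ZNF678 (rank 90.1), ZNF670 (84.3) and ZNF292 (82.5). Developmental transcription factors had 7 of 79 (8.86%), while 20 of the 79 (25.3%) had MP2_HDAC1_OE peaks alone. The 7 included FOXJ3, the homeobox gene PRRX2 (50.1), TFAP2A (45.9), whose region lay at the far end of the gene, and the T-box gene TBX6 (37.7). RNA processing had 16 of 198 (8.08%). ALYREF (89.5), an mRNA export adaptor, shared its region with ANAPC11, and DDX24 (79.3), an RNA helicase, shared its region with IFI27L1 of the interferon list. DHX57 (77.3), a helicase, and CSTF3 (74.0), of the cleavage stimulation factor, followed. Ubiquitin and proteasome had 23 of 293 (7.85%), with the proteasome subunits PSMB2 (77.1) and PSMA4 (76.5), the ligase scaffold CUL3 (73.8) and the deubiquitinase OTUD4 (63.9). Cytosolic ribosomal proteins had 7 of 80 (8.75%), where RPL14 (69.0), RPS4X (66.4) and RPL39 (61.9) came after RPL24.

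The smallest shares of lost promoters were in apoptosis, chromatin regulators and the mitochondrial list. Apoptosis had 1 of 35 (2.86%, 0.506% to 14.5%), the BCL2 family member BCL2L13 (rank 50.5). Chromatin regulators had 7 of 167 (4.19%, 2.05% to 8.40%), with BAZ1B (86.8), a remodeler subunit, TET2 (67.4), a methylcytosine dioxygenase, BRD3 (66.5), a reader of acetylated histones, and PHF21A (54.0), of the CoREST complex. The mitochondrial ribosome, import and respiration list had 10 of 192 (5.21%, 2.85% to 9.32%), and MRPL46 and MRPS11 (both 78.8) shared 1 region, with MRPS10 (77.9) next. Histones had 6 of 62 (9.68%), among them H2AZ2 (79.1), H1-3 (78.5) and H4C12 (74.9), whose region lay at the far end of the gene. Matrix, adhesion and proteases had 5 of 76 (6.58%), with ITGA3 (65.8), ADAM22, PCDHAC2 (41.3) and ADAMTS7 (37.5). In this list 31 of the 76 (40.8%) had MP2_HDAC1_OE peaks alone, against 12.7% of all coding genes with a region.

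The 3 remaining lists were close to the background or small. Interferon and antigen presentation had 5 of 44 (11.4%), with IFI27L1 (rank 79.3), OASL (47.1), IFI30 (22.3), a lysosomal thiol reductase, and STAT5B (14.8). Lipid and sterol metabolism had 7 of 69 (10.1%), while 14 of the 69 (20.3%) had MP2_HDAC1_OE peaks alone. Of the 7, APOOL (73.3), a mitochondrial inner membrane protein, and the cytidine deaminases APOBEC3H (49.0) and APOBEC3C (38.1) entered by their symbol. ACOT7 (72.4) hydrolyses acyl-CoA. Epithelial and mesenchymal genes had 2 of 20 (10.0%), the tight junction gene OCLN (54.2), with its region at the far end of the gene, and the keratin KRT15 (31.4).

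**Figure D4:**
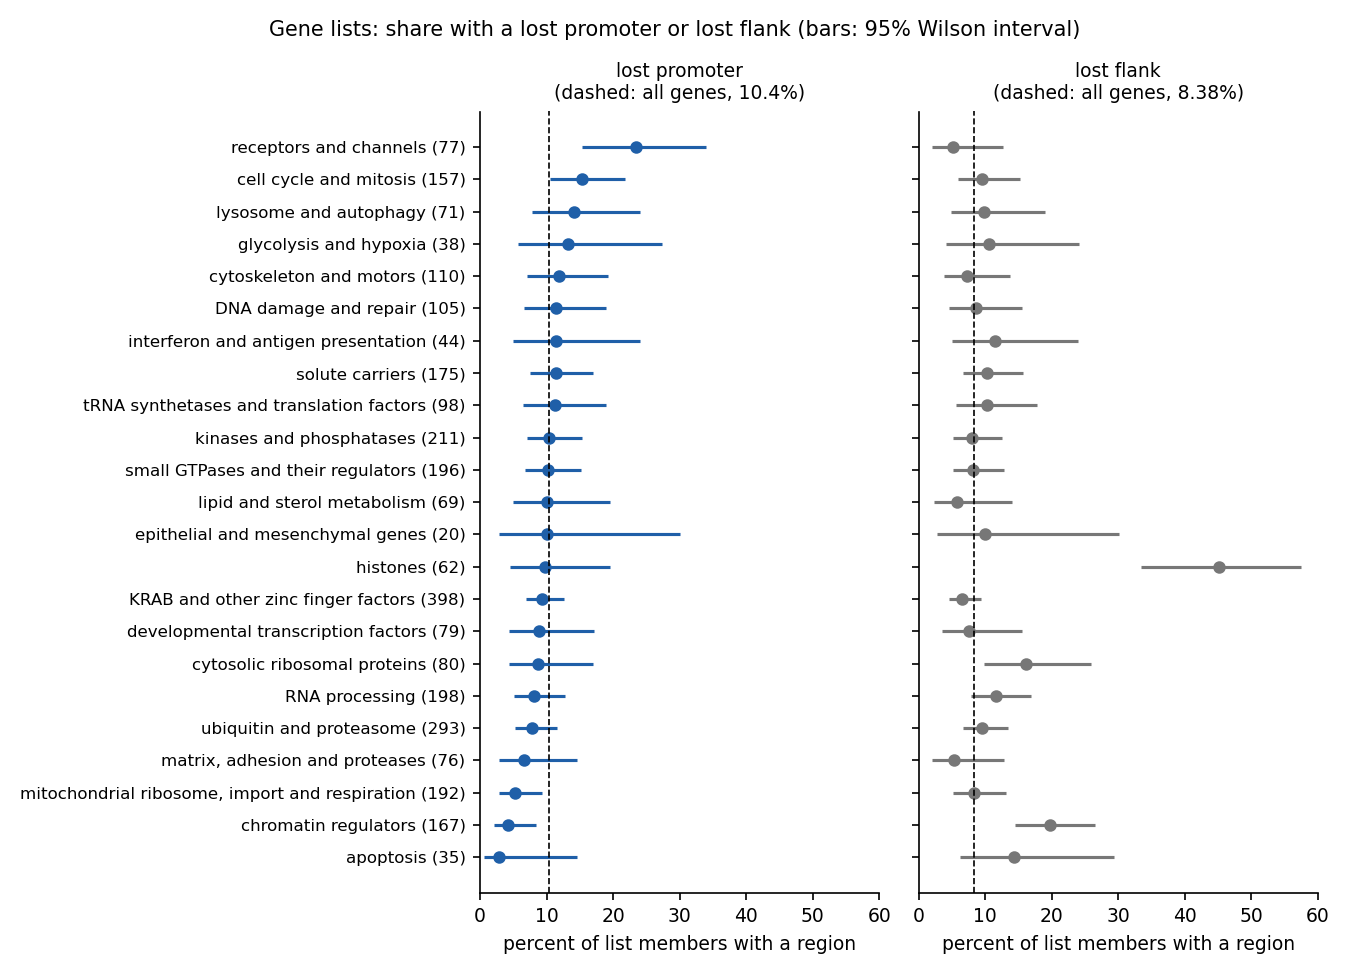
Percent of list members with a region (x axis, bars are 95% Wilson intervals) that were lost promoter genes (left) or lost flank genes (right) in 23 gene lists (y axis, members with a region in brackets), with the share of all coding genes dashed. Receptors and channels stand at 23.4% on the left and histones at 45.2% and chromatin regulators at 19.8% on the right.

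At lost flank genes the windows held H3K27ac peaks of both lines in one region and an MP2_NTC peak without a partner in another. The control-only region lay a median of 451 bp from the nearest shared region (quartiles 174 and 2282, longest 465069), and 445 of 815 genes (54.6%) had 500 bp or less between them. With a known strand, it lay upstream of the shared region in 334 genes (48.5%) and downstream in 355. Its peak ranked below the shared region's strongest MP2_NTC peak in 620 genes (76.1%), and the median rank of the lost flank peaks was 45.8. In 67 genes the end with the start site held a control-only region while the shared region was at the other end, and in 54 of them that start held control-only regions alone. An MP2_HDAC1_OE-only region was also present in 143 of the 815 genes.

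EEF2, the elongation factor that moves the ribosome along the mRNA, had the strongest lost flank peak, which was also the strongest of all 1747 regions. It ran from 35 to 607 bp downstream of the start site (chromosome 19, 3984856 to 3985428) with a signal of 125 and a rank of 98.1. The shared region lay upstream of the start, with ranks of 48.3 in MP2_NTC and 78.9 in MP2_HDAC1_OE, so the stronger side of the start in MP2_NTC was the one without an MP2_HDAC1_OE peak. RDH11, a retinol dehydrogenase, entered through the VTI1B region at its far end (rank 96.2) and kept a shared region at its own start. CTC1 (96.2), of the CST complex at telomeres, had 3 shared regions, and its control-only region was 108 bp from the nearest. CCDC9 ranked at 96.1. REV3L (94.2), the catalytic subunit of DNA polymerase zeta, had its control-only region 2 bp from a shared one. JKAMP (94.2), a membrane protein of the endoplasmic reticulum, had its control-only region 69 bp from a shared one. On the other side, 47 bp away, JKAMP held an MP2_HDAC1_OE-only region with a peak at a rank of 94.4. Distances this short depend on where each peak was cut.

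Histone genes had the largest share of lost flanks among the 23 lists, 28 of 62 against 8.38% of all coding genes with a region (45.2%, 95% Wilson interval 33.4% to 57.5%). These 28 genes rested on 21 regions. Most histone genes are short and stand in clusters, where a window can hold several promoters. H2AC13 and H3C10, of the cluster on chromosome 6, shared a control-only region of 979 bp with a rank of 95.9 (27808479 to 27809457), which also made H2BC13 a switched gene. The windows of H2AC13 and H2BC13 also held an MP2_HDAC1_OE-only region with a peak at a rank of 95.7. H3-3A, which encodes the replacement histone H3.3, ranked at 88.2 and H2AC25 at 88.0. These lost flank genes, and those of the next paragraph, were chosen for mention after their values were seen. A further 7 histone genes (11.3%) had an MP2_HDAC1_OE-only and a shared region but no control-only one, against 8.24% of all coding genes with a region.

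Chromatin regulators had few lost promoters but 33 lost flanks of 167 genes (19.8%, 14.4% to 26.5%), on 34 regions. RBBP7 and RBBP4, the histone chaperones that join HDAC1 in NuRD and Sin3, ranked at 93.1 and 84.5. The RBBP7 peak ran from position -1264 to -445 relative to the start, 406 bp from a shared region at the start where the ranks were 30.7 in MP2_NTC and 70.9 in MP2_HDAC1_OE. BRD9 (87.7) is a subunit of a SWI/SNF complex and ING5 (82.9) a reader of methylated H3 in acetyltransferase complexes. EP300, SMARCA4, KDM5B, MTA1 and HDAC1 were also among the 33. Cytosolic ribosomal proteins had 13 lost flanks of 80 (16.2%, 9.75% to 25.8%), led by RPL10 (85.3) and RPL27A (73.6). RNA processing had 23 of 198 (11.6%), with the splicing factor SRSF7 at 89.7. A further 31 of these 198 (15.7%) had an MP2_HDAC1_OE-only and a shared region but no control-only one, against 8.24% of all coding genes with a region. Zinc finger factors had 26 of 398 (6.53%, 4.50% to 9.40%), matrix genes 4 of 76 (5.26%, 2.07% to 12.8%) and receptors and channels 4 of 77 (5.19%, 2.04% to 12.6%), and these intervals included 8.38%. The other lists ran from 5.80% to 14.3%, apoptosis with 5 of 35 being the highest.

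HDAC1, the activated gene, was itself a lost flank gene, with 2 control-only regions, 1 shared region and 0 MP2_HDAC1_OE-only regions. At its start the shared region had a rank of 93.9 in MP2_HDAC1_OE and 40.4 in MP2_NTC. A control-only peak with a rank of 45.2 lay just downstream, and the other control-only region, with a rank of 47.4, lay beyond the far end of the gene. The shared region at the start thus ranked higher in the line that carries the HDAC1 guide, while the 2 control-only regions had peaks in MP2_NTC alone. Ranks within lists are not a measured ratio.

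Switched genes held regions of each line with no overlap, and the nearest MP2_HDAC1_OE peak lay within 500 bp in 165 of 251 (65.7%) and over 10 kb away in 11. IFT80, of intraflagellar transport, and SMC4, a condensin subunit, start back to back, and their MP2_NTC region of 1129 bp had a rank of 96.8 with its summit 492 bp into SMC4. The MP2_HDAC1_OE peaks lay on the other side of the SMC4 start, the stronger at a rank of 61.9, with 100 bp between the lines. HIRA, a chaperone of histone H3.3, and MRPL40 also share a promoter, with control-only peaks at ranks of 94.9 and 88.3 and an MP2_HDAC1_OE-only peak at a rank of 1.66, 6 bp away. H2BC13 completed the 5 highest, with a control-only peak at a rank of 95.9 and an MP2_HDAC1_OE-only peak at a rank of 95.7.

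Control-only regions were unevenly spread over the chromosomes. Against 17.0% in all, the share ran from 11.7% of 511 regions on chromosome 7 to 27.1% of 229 on chromosome 22 (21.7% to 33.2%), with 25.7% on chromosome 4, 23.9% on chromosome 15 and 23.8% on chromosome 13. Lost promoter genes took 20.3% of the genes with a region on chromosome 15, 19.5% on chromosome 4 and 18.0% on chromosome 22, and 5.76% on chromosome 7. The median MP2_NTC rank of shared regions also varied, from 58.4 on chromosome 4 to 86.9 on chromosome 5, with 67.3 on chromosome 22, 67.9 on chromosome 15, 71.7 on chromosome 13 and 79.7 on chromosome 7. The chromosomes with the lowest medians, 4, 22 and 15, were those with the highest control-only shares. Chromosome 11 combined 69.1 with a share of 16.9%, chromosome 12 combined 70.2 with 16.2% and chromosome 20 combined 77.1 with 20.6%. Whether this median and the share are linked was not tested. The share of MP2_HDAC1_OE-only regions was 22.5% on chromosome 4, 25.2% on chromosome 15 and 21.8% on chromosome 22. Its highest values were 28.5% on chromosome 11 and 25.7% on chromosome 12. The part of DNA copy number, which these lists do not hold, was not tested.

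**Figure D5:**
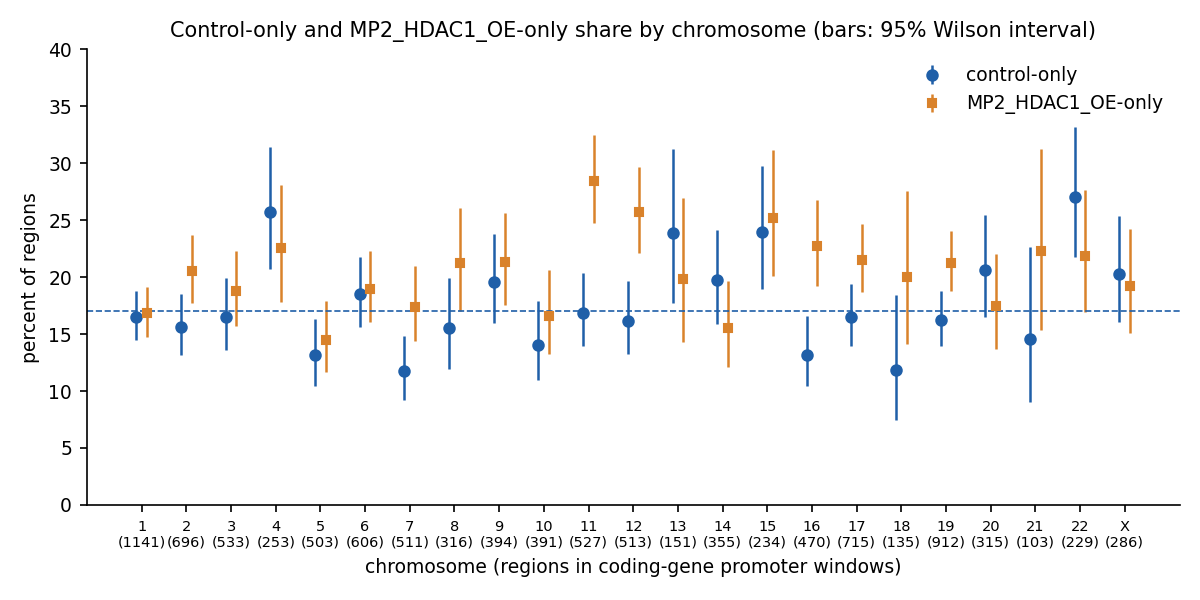
Percent of regions in coding-gene promoter windows (y axis, bars are 95% Wilson intervals) that were control-only (blue circles) or MP2_HDAC1_OE-only (orange squares) on each chromosome (x axis, number of regions in brackets), with the control-only share over all chromosomes dashed. Control-only shares are highest on chromosomes 22 (27.1%) and 4 (25.7%) and lowest on chromosome 7 (11.7%).

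Most control-only regions had another kind of region as their neighbour. Taking the promoter regions in order along each chromosome, 1236 stood alone, 198 runs held 2, 34 held 3, 2 held 4 and 1 held 5. The longest run lay on the short arm of chromosome 3 (39414135 to 41963111) and passed the far end of RPSA (rank 53.3), a ribosomal protein that is also known as the laminin receptor, then EIF1B (70.0), an initiation factor, RPL14 (69.0), CTNNB1 (64.6), which encodes beta-catenin of the Wnt pathway and of cell junctions, and ULK4 (9.31). A run of 4 stood on the same arm, beginning at PDCD6IP (75.5), the ESCRT adaptor ALIX, and ending at GOLGA4 (60.5), a golgin. Over the 8.16 Mb from the first run to the second, 9 of 15 promoter regions were control-only, 4 shared and 2 MP2_HDAC1_OE-only. The other run of 4, on chromosome 19, held the zinc finger genes ZNF552, ZNF587, ZNF417 and ZNF256, with ranks from 27.5 to 61.2. These stretches were picked for their length, so the counts describe them and test nothing.

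The promoter sequences of lost promoter genes had a composition close to that of genes with shared regions alone. Over the 250 bases before the start site, the median G and C content was 65.2% in 827 lost promoter genes, 64.8% in 689 lost flank genes and 64.4% in 4714 genes with shared regions alone, against 58.0% in 7754 genes with no region. The median number of CpG was 22, 22, 21 and 8 in the same order. A ratio of observed to expected CpG of 0.6 or more, a common mark of CpG islands, was found in 80.8% of lost promoter genes, 86.6% of lost flank genes and 85.4% of genes with shared regions alone. It was found in 80.6% of genes with MP2_HDAC1_OE peaks alone. Where the start site lay inside the region, the share was 88.2% for control-only and 89.4% for shared regions. The GC box stood in 70.4% of lost promoter sequences (67.2% to 73.4%) and 66.8% of those with shared regions alone (65.4% to 68.1%), and CCAAT in 38.0% and 34.3%. The ETS motif stood in 17.7% (15.2% to 20.4%) and 19.9% (18.8% to 21.1%), the NRF1 motif in 9.92% and 13.0% and the TATA box in 4.96% and 5.05%. The CRE motif stood in 2.18% (1.38% to 3.41%) and 3.46% (2.97% to 4.02%), the E-box in 8.59% and 9.86% and the AP-1 motif in 2.06% and 2.02%. Over all coding genes, 34.5% held CCAAT, 11.8% the ETS motif, 7.84% the E-box and 3.17% the AP-1 motif.

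Markers of cell identity gave a check of the label. Of 7 epithelial and ductal carcinoma markers, KRT8, KRT18, KRT19 and MUC1 had peaks in both lines, and KRT7, EPCAM and CDH1 had none at the promoter in either list. KRT8 and KRT18 rested on the same shared peaks, with ranks of 76.2 in MP2_NTC and 61.1 in MP2_HDAC1_OE. The mesenchymal genes VIM and ZEB1 had peaks in both lines and CDH2 had none. Of 2 endothelial markers, CDH5 had a shared region with ranks of 47.7 and 67.9, and PECAM1 had no peak. No acinar (4), endocrine (3) or fibroblast (3) marker had a peak. KRT19 was a switched gene with a rank of 6.86 in MP2_NTC and 42.8 in MP2_HDAC1_OE. VIM was a lost flank gene whose control-only peak ranked at 23.9 beside shared peaks at 69.1 and 86.2. VIM also held 1 MP2_HDAC1_OE-only region. CD14, a leukocyte marker, had a weak lost promoter peak at a rank of 24.4, and PTPRC and CD3E had none.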

How the data were processed

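H3K27ac ChIP-sequencing was described for MP2_NTC and MP2_HDAC1_OE through the 2 deposited lists of peaks. Per the submitters' processing notes, reads were aligned with BWA 0.7.12 to hg38; the authors followed ENCODE protocols for 75 bp single-end reads and kept peaks that were reproducible between the 2 samples of a line (IDR). The peak caller is not given in the sources used here. Beside its position, a peak carries the authors' signal, used here for ranks within a list, and a deposited score, which was not used. The lists hold no counts, so the depth and its precision are unknown. The samples without antibody have no peaks of their own and were not analysed here.

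Peaks were merged at an overlap of 1 bp, and promoter windows and start sites were taken from RefSeq tables (GRCh38.p14). The members and gene lists were chosen with earlier results of these data known. The genes named are HDAC1, cell type markers, the 20 highest and 3 lowest lost promoter genes by rank, the 8 highest lost flank genes, the 5 highest switched genes, up to 4 lost promoter genes of each list, the longest run and 2 regions on each side of a threshold, besides those said to be chosen later; a few genes that the rule names are not reported here. Shares have 95% Wilson intervals. Order-statistic intervals of medians served to judge the alternative settings and not to compare groups. No test was run, since each line has 1 list. The alternatives covered the overlap, gaps, peak thresholds, equal numbers of peaks and other windows. The assignment of genes to classes was checked on simulated intervals. The tools were matplotlib 3.10.9, scipy 1.17.1, pandas 2.3.3 and numpy 2.4.6 under Python 3.11.15.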

Additional observations from a re-analysis of the deposited data

How the results depend on the processing

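Of 56 alternative values of 6 results, 39 stayed within 1.5 times a count or within the 95% interval of a share or median, and 17 moved. With an overlap of 50% of both peaks, control-only promoter regions numbered 4494 (30.1%) and lost flank genes 2616 with a median rank of 55.2. With gaps of up to 500 bp merged, the share was 13.4% and lost flank genes numbered 335 with a median rank of 42.5. With the 50% of MP2_NTC peaks of the highest signal set against the whole MP2_HDAC1_OE list, there were 837 regions (8.80%), 317 lost flank genes (median rank 69.2) and 502 lost promoter genes (median rank 65.3). With the 75% of peaks of the highest signal in each list, the median ranks were 55.2 in lost flank and 53.9 in lost promoter genes, both of which follow in part from the removal of weak peaks. With the same number of peaks in both lists the share was 17.8%. With the end that holds the start site alone, lost flank genes numbered 465, among fewer genes and windows. The lost promoter count stayed between 796 and 1055 in every other alternative run.

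No paired analysis was possible because the deposited peaks carry no value of a single sample, which also leaves no replicate to drop. A peak that fell just under the IDR threshold and an absent one cannot be told apart in these lists.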
